A study of Mus musculus with 76 samples.

Results

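The comparison described here sets the dorsal forebrain of mouse embryos whose fathers had received α-cypermethrin at the lower labelled dose against that of embryos of 2 unexposed parents. It holds 24 of the 76 libraries of the series, chosen by their labels: 12 of the group Paternal_0.3Cyp and 12 of the group Ctrl. All embryos were C57BL/6J and were taken at embryonic day 16. In Paternal_0.3Cyp the father was given α-cypermethrin at a dose labelled 0.3, for which the labels give no unit, and the mother vehicle, while both parents of Ctrl embryos were given vehicle. Dosing spanned 28 days before mating: 7 treated days in a row, then 3 rounds that each had 2 rest days before 5 treated days. The dams that carried Paternal_0.3Cyp embryos were thus not dosed with α-cypermethrin. Each group had 6 libraries in the labelled batch 1 and 6 in batch 2, with 5 female and 7 male embryos in Ctrl and 6 of each in Paternal_0.3Cyp. The labels name no litter or father, so embryos are counted as separate replicates although some may be littermates. The p-values of the main test measure the spread between single embryos, estimated jointly over all 76 libraries of the series and not over these 24 alone.

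α-Cypermethrin is a pyrethroid, a class of insecticides that hold voltage-gated sodium channels open. The dorsal forebrain at this age is the developing cortex. Radial glia next to the ventricle divide and give rise to intermediate progenitors, which divide again and produce the glutamatergic neurons of the cortical layers, while the first oligodendrocyte precursors and astrocytes appear and neurons begin to form synapses. The series is titled around autism spectrum disorder and stress vulnerability, and the comparison asks how far exposure of the father alone alters RNA levels in this tissue. The labelled tissue was checked on genes of dorsal forebrain: Emx1 ran from 27.1 to 73.9 normalised CPM (counts scaled to 1 M of the library's effective total) in Ctrl and from 24.3 to 116 in Paternal_0.3Cyp, and Pax6, Eomes and Tbr1 were above 24 CPM in every library.

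The 24 libraries were even in depth, with 17.9 to 19.9 M counts in Ctrl and 17.97 to 19.38 M in Paternal_0.3Cyp (2-sided exact permutation test of totals within batches, p = 0.511). They were not even in spread. The median residual SD of log2 CPM over genes was 0.261 in Paternal_0.3Cyp and 0.168 in Ctrl, and 0.128 to 0.170 in the other 5 groups of the series. Of the 76 libraries, 5 stood far from the median of their own group and batch, namely Paternal_0.3Cyp replicates 2, 4, 8 and 9 and Ctrl replicate 3. Paternal_0.3Cyp replicates 3 and 4 were also high in embryonic globins (21.4 and 82.6 CPM against at most 2.44 in the other 22 libraries). Paternal_0.3Cyp replicate 9 was high in markers of the diencephalon, the neighbouring brain region (725 CPM), as were Ctrl replicate 3 (288 CPM) and Paternal_0.3Cyp replicate 6 (201 CPM). The main counts are therefore given with all libraries and again without the 5 far ones.

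In the fit with all libraries, embryos of exposed fathers had higher levels of progenitor, cell division and ribosome genes. Levels of synapse, ion channel and cholesterol synthesis genes were lower. Without the 5 far libraries, 4 of 79 cytosolic ribosome genes were called higher, beside 3.93% of all genes. Of 11 sodium, 19 calcium and 41 potassium channel genes, 1, 3 and 3 were then called lower, beside 3.35% of all genes. In the quasi-likelihood test of edgeR over all 76 libraries, 3961 of 14339 genes (27.6%) differed at an adjusted p under 0.05, 2206 higher (15.4%) and 1755 lower (12.2%) in Paternal_0.3Cyp. Most differences were small, with a median absolute log2 fold change of 0.24 among called genes, 307 of them at 0.5 or more and 37 at 1 or more. Their sign was the same in both batches for 99.6% of called genes (73.1% of all genes tested) and in both sexes for 99.0% (63.1% of all), which the calls themselves favour since they rest on both. No gene had all 12 exposed libraries above, or all 12 below, every Ctrl library. Among called genes, 137 were above the Ctrl mean in all 12 exposed libraries and 287 below it.

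The number of calls rested on how the uneven spread was treated. Without the 5 far libraries 1040 genes were called (562 or 3.93% higher, 478 or 3.35% lower), of which 967 were among the 3961. With limma voom and a quality weight for each group the count was 2044 (983 or 6.86% higher, 1061 or 7.4% lower). Fitted on the 24 libraries alone, edgeR called 0 genes, with a lowest adjusted p of 0.0845 and 3928 genes at an unadjusted p under 0.05, while limma voom on the same 24 libraries called 371 with group weights and 1760 with sample weights. Leaving out Paternal_0.3Cyp replicate 8 left 2262 calls and leaving out replicate 4 left 2592. A set of 809 genes, 449 higher and 360 lower, was called in the full fit, without the far libraries and with group weights alike. Of the 136 called genes named here, 86 were also called without the far libraries, and the other 50 (Atp5e, Atp5k, Ccnd1, Cdkn1c, Crmp1, Cspg4, Dok5, Epha7, Fam120c, Fosl2, Gfap, Gpr17, Grb10, Grin2b, Grm2, Grm3, Homer1, Ier2, Inhba, Irx1, Irx2, Irx5, Jund, Kcna6, Lmo4, Lss, Ncoa1, Neurog2, Nr3c2, Nr4a2, Pax5, Pax6, Pdgfra, Prdx1, Prdx4, Prph, Rfc3, Rims1, Robo1, Scn2a, Scn3b, Scn8a, Shox2, Sox2, Sqle, Syt6, Tfap2b, Tubb4a, Uhrf1 and Uqcr11) were not.

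**Figure D1:**
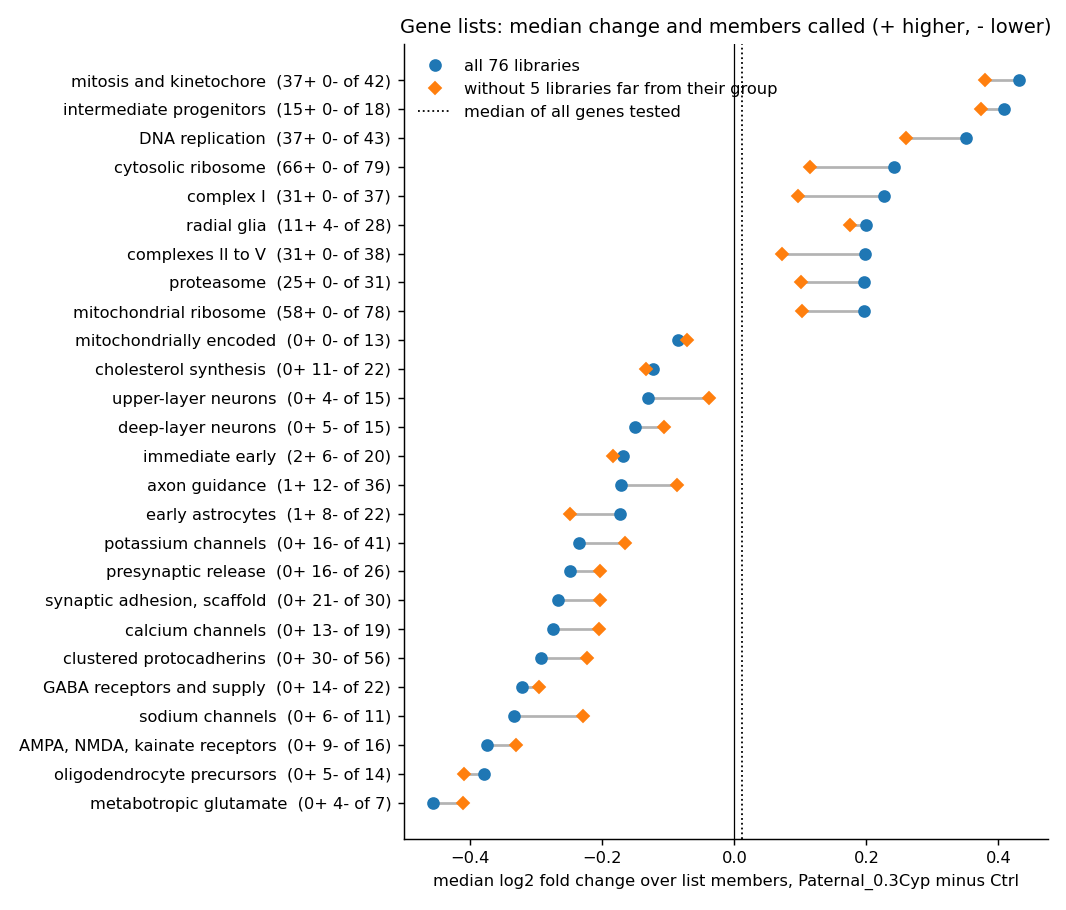
Median log2 fold change (Paternal_0.3Cyp minus Ctrl, x axis) over the members of 26 gene lists (y axis), with all 76 libraries (circles) and without the 5 libraries far from their group (diamonds). Each label gives the members called higher and lower among those tested. The dotted line is the median of all 14339 genes (0.01). Mitosis, intermediate progenitor and DNA replication lists have the highest medians and metabotropic glutamate receptors the lowest.

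Among the 12 rising genes of lowest p and a mean of at least 5 CPM, the progenitor gene Hes1 and the RNA kinase gene Clp1 were above the Ctrl mean in every exposed library. The same held for Hmg20b, Prmt6, Rnf7 and Ltv1. Hes1 (ENSMUSG00000022528, chr16:30064384-30067796 on mm10 in the GENCODE annotation), the Notch effector that keeps neural progenitors from differentiating, measured 7.86, 9.63 and 14.7 normalised CPM in Ctrl (lowest, median and highest of 12) and 12.04, 13.7 and 27.6 in Paternal_0.3Cyp. All 12 exposed libraries were above the Ctrl mean and 4 above the highest Ctrl library, with replicate 4 the highest. Its log2 fold change was 0.66 ± 0.13 (SE, as after every ± below), adjusted p = 0.00169.

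Clp1 (chr2:84722104-84727350), an RNA kinase of tRNA splicing and mRNA 3′ end formation, measured 7.93, 9.58 and 13.01 CPM in Ctrl and 10.4, 12.5 and 19.5 in exposed embryos. Its 12 exposed libraries were likewise all above the Ctrl mean, 5 of them above every Ctrl library. The log2 fold change of Clp1 was 0.45 ± 0.08 (adjusted p = 0.00121), and by ranks within batches Clp1, Hes1 and Pdcd5 (log2 fold change 0.40 ± 0.08) separated the groups best among rising genes. Klhl35 was the rising gene of lowest p (0.52 ± 0.09), with 5.09, 7.46 and 10.2 CPM in Ctrl and 7.15, 11.2 and 16.9 in exposed embryos, where 8 libraries exceeded every Ctrl library and replicate 9 was the lowest.

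The other 9 were Btbd17 (0.44 ± 0.08), Snrpf (0.52 ± 0.10), a core protein of splicing snRNPs, Hmg20b (0.49 ± 0.09), a subunit of the LSD1-CoREST repressor complex, and Coq7 (0.43 ± 0.08), an enzyme of ubiquinone synthesis. They further comprised the arginine methyltransferase Prmt6 (0.20 ± 0.04), Anapc13 (0.54 ± 0.11), a subunit of the anaphase-promoting complex, Hmgn1 (0.37 ± 0.07), a nucleosome-binding protein, Rnf7 (0.30 ± 0.06), the RING protein of cullin ligases, and Ltv1 (0.31 ± 0.06), a factor of small ribosomal subunit assembly. Adjusted p for the 12 ran from 0.00121 to 0.00225. Prmt6, the smallest change of the 12, still had all 12 exposed libraries above the Ctrl mean (22.2, 25.9 and 28.9 CPM in Ctrl, 26.8, 29.1 and 35.4 in exposed embryos). All 12 were also called without the far libraries and with group weights, and 9 of 12 in edgeR on the 24 libraries without the far ones. In edgeR on all 24 libraries each had an adjusted p of 0.0845. These fits share libraries with the fit that chose the genes, so they are not independent tests of them.

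Of the 12 falling genes chosen the same way, 11 were below the Ctrl mean in every exposed library. Fchsd2 (chr7:101092863-101284405), an F-BAR protein of actin assembly and endocytosis, measured 131, 146 and 163 CPM in Ctrl and 104, 130.1 and 141 in exposed embryos. None of the 12 exposed libraries reached the Ctrl mean, and 8 lay below the lowest Ctrl library. The log2 fold change of Fchsd2 was -0.22 ± 0.04 (adjusted p = 0.00121).

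Fgf14 (chr14:123977907-124677127), an intracellular FGF-family protein that binds voltage-gated sodium channels, measured 19.7, 23.9 and 29.4 CPM in Ctrl and 13.7, 19.1 and 23.8 in exposed embryos. It too was below the Ctrl mean in all 12 exposed libraries and below every Ctrl library in 7 (-0.39 ± 0.07, adjusted p = 0.00121). Phactr1, a regulator of actin and protein phosphatase 1, was below every Ctrl library in 9 of 12 (217, 243 and 271 CPM in Ctrl, 149.9, 207 and 236 in exposed embryos; -0.29 ± 0.05). Camsap3, which caps microtubule minus ends, fell by a similar amount (-0.28 ± 0.05), with 114, 127 and 156 CPM in Ctrl and 83.1, 109 and 125 in exposed embryos and none of the 12 at the Ctrl mean. By ranks within batches Fchsd2, Camsap3 and Fam120c (-0.31 ± 0.09) separated the groups best among falling genes.

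The remaining falling genes of the 12 were Scmh1 (-0.23 ± 0.04), a Polycomb protein, Dhcr7 (-0.23 ± 0.04), the last enzyme of cholesterol synthesis, Elovl6 (-0.25 ± 0.05), a fatty acid elongase, and Klf5 (-0.62 ± 0.12), a zinc finger transcription factor. With them were Elmo1 (-0.28 ± 0.06), part of a Rac activator, Ripor1 (-0.29 ± 0.06), an inhibitor of RhoA, Drp2 (-0.32 ± 0.06), a dystrophin-related protein, and the clustered protocadherin Pcdhgc5 (-0.67 ± 0.14). Klf5 and Pcdhgc5 had the largest changes of the 12, and for all but Dhcr7, which exceeded the Ctrl mean in 1 library, no exposed library was above it. All 12 were also called without the far libraries and with group weights, and 11 of 12 in edgeR on the 24 libraries without the far ones. As for the rising genes, these fits are not independent of the choice, and edgeR on all 24 libraries gave each an adjusted p of 0.0845.

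**Figure D2:**
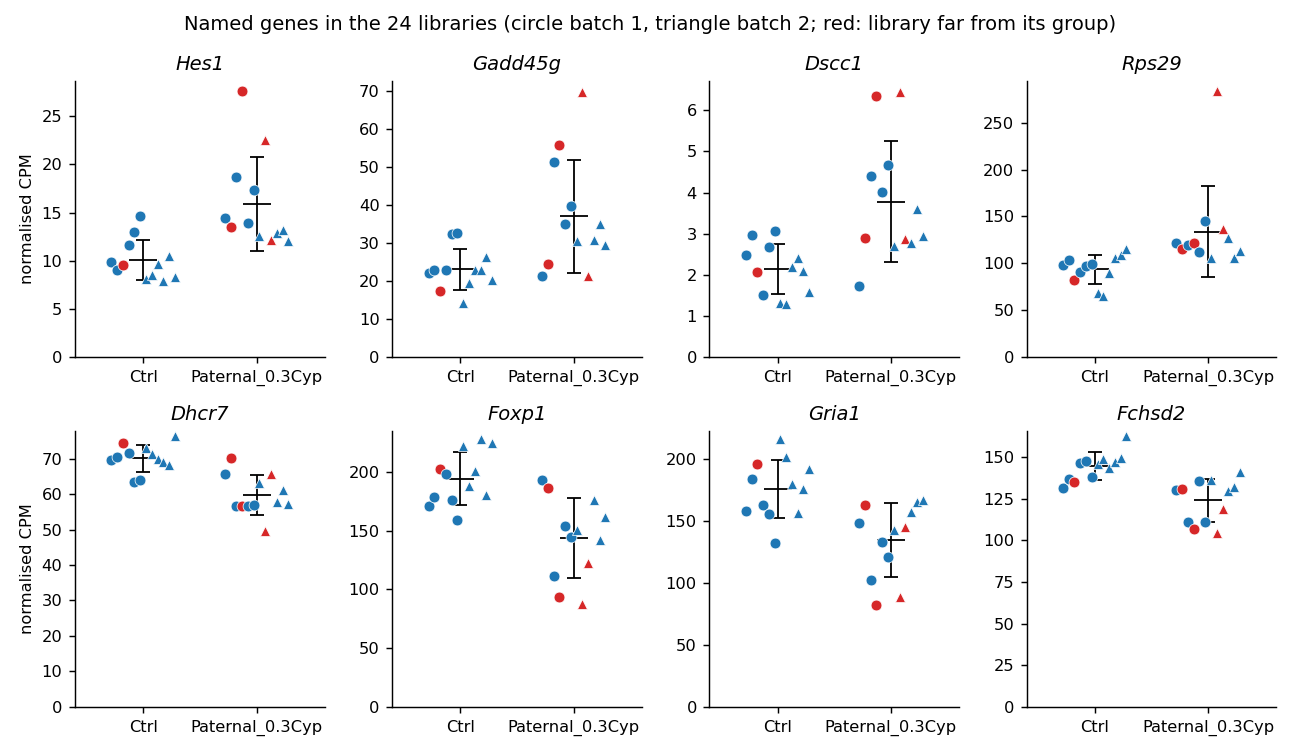
Normalised CPM (y axis, from 0) of 8 named genes in each of the 12 Ctrl and 12 Paternal_0.3Cyp libraries. Circles are batch 1, triangles batch 2, red points libraries far from their group, and bars the mean ± SD of 12. All 12 exposed libraries lie above the Ctrl mean for Hes1 and Rps29 and below it for Fchsd2, Foxp1 and Gria1.

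Genes of intermediate progenitors and of the proneural program rose together: 15 of 18 members tested were higher and 0 lower, with a median log2 fold change of 0.41 against 0.01 for all genes. Gadd45g, which marks newly forming neurons, measured 14.2, 22.9 and 32.7 CPM in Ctrl and 21.3, 32.8 and 69.7 in exposed embryos. In 10 of 12 exposed libraries it exceeded the Ctrl mean, and it was highest in replicate 8 (0.67 ± 0.14, adjusted p = 0.00225). Rnd2, a small GTPase of migrating neurons (0.54 ± 0.12), the proneural factor Neurod4 (0.65 ± 0.15), Neurog2, which starts cortical neurogenesis (0.61 ± 0.19), and Eomes, which defines intermediate progenitors (0.45 ± 0.15), rose as well. In bulk tissue more cells of a type and more RNA per cell cannot be told apart. With the far libraries left out 10 of the 18 were called, all higher, and without replicate 4 alone 9. Among all genes 15.4% were higher with all libraries and 3.93% without the far ones.

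Radial glia genes had mostly positive values, in 21 of 28 members (median 0.20). Of the 28, 11 were called higher and 4 lower, beside 15.4% and 12.2% of all genes, and without replicate 4 the higher ones numbered 5. With the 5 far libraries left out 4 were higher and 3 lower, beside 3.93% and 3.35% of all genes. Vim, the intermediate filament of radial glia, measured 358, 412 and 585 CPM in Ctrl and 429.5, 522 and 970.4 in exposed embryos, above the Ctrl mean in 11 of 12 (0.43 ± 0.10). Pax6 (0.31 ± 0.10) and Sox2 (0.22 ± 0.07), transcription factors of these cells, rose, while Slc1a3, the glutamate transporter GLAST, fell (-0.24 ± 0.06; 150.0, 187 and 203 CPM in Ctrl, 120.2, 159 and 183 in exposed embryos). Fabp7 (0.07 ± 0.08) and the Notch effector Hes5 (0.17 ± 0.11) were not called. Of 11 genes that mark early progenitor age 4 were higher and 0 lower, falling to 2 without replicate 3 or without replicate 4. They included Hmga2, a chromatin protein abundant in young progenitors (1.33 ± 0.30), with 0.671, 1.29 and 3.87 CPM in Ctrl and 1.45, 2.79 and 14.4 in exposed embryos, and replicate 4 the highest. Hmgb2, another chromatin protein of dividing progenitors (0.58 ± 0.14), and cyclin Ccnd1 (0.25 ± 0.08) were also among the 4.

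DNA replication genes were higher in 37 of 43 cases and lower in 0 (median 0.35), and mitosis and kinetochore genes in 37 of 42 and 0 (median 0.43). Of all genes 15.4% were higher and 12.2% lower. Dscc1 (chr15:55076099-55090491), a subunit of the clamp loader that acts in sister chromatid cohesion, measured 1.29, 2.14 and 3.06 CPM in Ctrl and 1.73, 3.27 and 6.45 in exposed embryos. In 11 of 12 exposed libraries it exceeded the Ctrl mean and in 6 of them every Ctrl library (0.82 ± 0.15, adjusted p = 0.00121). E2f1, a driver of S-phase entry (0.46 ± 0.10), the dUTPase Dut (0.37 ± 0.08), the replication licensing inhibitor Gmnn (0.67 ± 0.15), thymidine kinase Tk1 (0.64 ± 0.15) and the sliding clamp Pcna (0.35 ± 0.08) also rose.

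Among mitotic genes Cks2, a subunit of cyclin-dependent kinases, measured 7.75, 13.03 and 22.7 CPM in Ctrl and 11.5, 18.2 and 31.03 in exposed embryos (0.62 ± 0.13, adjusted p = 0.0025). Its exposed libraries were above the Ctrl mean in 11 of 12, with replicate 8 the highest. Spc24, of the kinetochore's NDC80 complex, had a log2 fold change of 0.54 ± 0.12, Cks1b 0.50 ± 0.11 and cyclin Ccnb1 0.47 ± 0.13, whereas the proliferation markers Mki67 (0.26 ± 0.14) and Top2a (0.32 ± 0.13) were not called (adjusted p = 0.174 and 0.0631). Without the far libraries 17 of 43 replication genes and 22 of 42 mitotic genes were called, all higher, and without replicate 4 alone 24 and 25. Among all genes 15.4% were higher with all libraries and 3.93% without the far ones. Of 30 clustered histone genes tested, 9 were higher and 0 lower (median 0.42), or 4 and 0 without the far libraries; these genes are near-identical copies between which reads may be shared, so single members such as Hist1h4i (0.72 ± 0.17) are uncertain.

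Cell cycle genes are known to be read out in waves through short promoter elements, an E2F site at G1/S genes and a cell cycle homology region at G2/M genes. In RefSeq promoter windows (GRCm38.p6, 250 bases before to 50 after a gene's start, 1 window for each of 11163 tested genes, both strands), the letters TTTNNCGC were found in 13 of 35 replication genes (37.1%) and in 8.39% of all tested genes. TTTGAA was found in 26 of 34 mitotic genes (76.5%) and in 11.5% of all, and CCAAT in 25 of 34 (73.5%) and 38.6%. The 250 bases before the start are shown for the member of lowest p whose bases there hold the letters, Rfc3 (chr5:151651209-151651458, minus strand), a subunit of the clamp loader that rose by 0.25 ± 0.07, and Cks1b (chr3:89418292-89418541, minus strand). Capitals mark TTTNNCGC in Rfc3 and TTTGAA, on either strand, in Cks1b.
Rfc3: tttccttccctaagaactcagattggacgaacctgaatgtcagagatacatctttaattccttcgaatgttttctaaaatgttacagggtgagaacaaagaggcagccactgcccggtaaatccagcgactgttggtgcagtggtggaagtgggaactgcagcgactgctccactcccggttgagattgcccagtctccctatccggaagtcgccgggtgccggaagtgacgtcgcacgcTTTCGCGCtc
Cks1b: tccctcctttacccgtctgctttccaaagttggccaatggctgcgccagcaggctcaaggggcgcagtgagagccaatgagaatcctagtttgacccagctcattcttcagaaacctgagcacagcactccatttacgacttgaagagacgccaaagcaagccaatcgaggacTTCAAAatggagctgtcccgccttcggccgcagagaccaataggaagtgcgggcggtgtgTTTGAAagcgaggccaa
A match is a run of letters, not shown here to be a bound site.

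Genes of the ribosome, of mitochondrial respiration and of the proteasome were higher in large numbers but by small amounts. Cytosolic ribosomal proteins were higher in 66 of 79 cases (median 0.24), mitochondrial ribosomal proteins in 58 of 78 (0.20), complex I genes in 31 of 37 (0.23), nuclear genes of complexes II to V in 31 of 38 (0.20) and proteasome subunits in 25 of 31 (0.20), with 0 lower in each. Without replicate 8 alone the counts were 22, 23, 9, 8 and 12, and without the 5 far libraries 4, 8, 2, 0 and 4. Among all genes 15.4% were higher with all libraries and 3.93% without the far ones.

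Rps29, a protein of the small ribosomal subunit, measured 65.2, 97.5 and 116 CPM in Ctrl and 106, 120.2 and 283 in exposed embryos (0.52 ± 0.11, adjusted p = 0.00233). All 12 exposed libraries were above the Ctrl mean and 8 above every Ctrl library, with replicate 8 at more than the 11 others. Ndufa6, a complex I subunit, was above the Ctrl mean in all 12 exposed libraries as well (26.04, 28.99 and 34.2 CPM in Ctrl, 30.3, 33.96 and 69.8 in exposed embryos; 0.36 ± 0.08), and Mrpl2 of the mitochondrial ribosome (0.39 ± 0.08) and Psmc5, a proteasome ATPase (0.27 ± 0.06), were also highest in replicate 8. Uqcr11 of complex III (0.37 ± 0.09) and the ATP synthase subunits Atp5k (0.48 ± 0.12) and Atp5e (0.38 ± 0.09) rose and were above the Ctrl mean in all 12 exposed libraries, and the ribosomal genes Rps28 (0.49 ± 0.11) and Fau (0.35 ± 0.08) in 11 and 10 of 12. The 13 genes encoded in the mitochondrial genome were called in 0 cases by edgeR and 0 by limma voom with group weights (2 at an unadjusted p under 0.05 in edgeR), with a median of -0.09 and mt-Co1, a catalytic subunit of complex IV, at -0.14 ± 0.06 (adjusted p = 0.055). Left out alone, replicate 9 gave 2 of them lower, and without the far libraries 1 was higher.

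Direction went with transcript length. With genes in 4 equal classes by their longest annotated transcript, in the shortest class (up to 2304 bp), 31.8% were higher and 2.20% lower (median log2 fold change 0.13), while in the longest (above 4921 bp) 3.18% were higher and 23.9% lower (median -0.09). The same classes held, without the far libraries, 6.58% higher and 1.37% lower, and 1.14% higher and 4.86% lower. With offsets for transcript length and GC content, 15 cytosolic ribosome genes were higher and 1 lower (median 0.05), 9 complex I genes were higher and 6 mitochondrially encoded genes lower, while 36 replication and 40 mitotic genes were higher. The whole count under these offsets was 3135 genes, 1607 higher and 1528 lower.

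**Figure D3:**
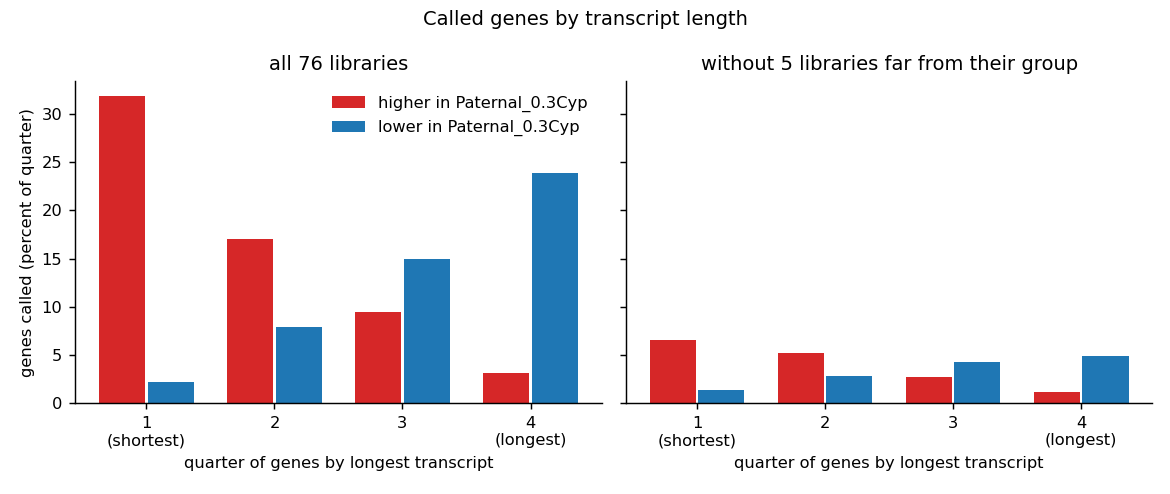
Percent of genes called higher (red) or lower (blue) in Paternal_0.3Cyp (y axis, from 0) in 4 equal classes of genes by longest annotated transcript (x axis), with all 76 libraries (left) and without the 5 far libraries (right). The shortest class is 31.8% higher and the longest 23.9% lower on the left, and 6.58% and 4.86% on the right.

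Genes of synapses were lower, and in the fit with all libraries none of the 5 lists had a higher member (with length and GC offsets 1 GABA and 2 adhesion genes were higher). Of 16 AMPA, NMDA and kainate receptor genes 9 were lower (median -0.37), of 7 metabotropic glutamate receptors 4 (-0.46), of 22 genes of GABA receptors and GABA supply 14 (-0.32), of 26 presynaptic release genes 16 (-0.25) and of 30 synaptic adhesion and scaffold genes 21 (-0.27). Without the far libraries 8, 2, 6, 5 and 7 were called in these lists, all lower. Among all genes 12.2% were lower with all libraries and 3.35% without the far ones. Single libraries moved some of these counts by more than 1.5 times: without Ctrl replicate 3 the GABA list held 7 and the presynaptic list 10, without replicate 4 they held 7 and 9, without replicate 8 the GABA list held 7, and without replicate 9 the glutamate receptor lists held 14 of 16 and 7 of 7.

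Gria1 (chr11:57011387-57330244), an AMPA receptor subunit, measured 133, 178 and 216 CPM in Ctrl and 81.97, 144 and 167 in exposed embryos (-0.38 ± 0.08, adjusted p = 0.0025). None of the 12 exposed libraries reached the Ctrl mean and 4 lay below every Ctrl library, replicate 4 being the lowest. Gria2 (-0.45 ± 0.11), Gria3 (-0.33 ± 0.08), the kainate receptor Grik2 (-0.30 ± 0.07) and the NMDA receptor subunit Grin2b (-0.45 ± 0.16) fell too. All 7 metabotropic receptors had negative values: Grm5 (-0.60 ± 0.16), Grm7 (-0.54 ± 0.17), Grm2 (-0.46 ± 0.14) and Grm3 (-0.62 ± 0.20) were called, and the others, among them Grm8 (-0.35 ± 0.19) and Grm4 (-0.21 ± 0.12), were not.

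Grm5 had the highest level of this family in both groups (70.1, 139 and 177 CPM in Ctrl, 33.3, 97.4 and 126 in exposed embryos), and its exposed libraries were all below the Ctrl mean. The GABA-A receptor subunit Gabrb1 (-0.57 ± 0.16) fell among GABA genes, and the release machinery genes Syt1 (-0.41 ± 0.10) and Rims1 (-0.46 ± 0.12) among presynaptic ones. Dlg2, a scaffold of the postsynaptic density, measured 121, 194 and 229 CPM in Ctrl and 56.3, 135 and 185 in exposed embryos, with replicate 8 the lowest and none above the Ctrl mean (-0.58 ± 0.13). Lrrtm2, a synaptic adhesion protein, fell as well (-0.48 ± 0.10).

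Ion channel genes, among them those of the voltage-gated sodium channels that pyrethroids target, were lower in part. Sodium channel genes were lower in 6 of 11 cases (median -0.33), calcium channel genes in 13 of 19 (-0.27) and potassium channel genes in 16 of 41 (-0.24), with 0 higher in each. Among all genes 12.2% were lower. Scn2a, the main sodium channel of young cortical neurons, measured 45.1, 78.9 and 105 CPM in Ctrl and 22.7, 62.2 and 91.1 in exposed embryos. It was below the Ctrl mean in 11 of 12 exposed libraries, with replicate 9 the highest and replicate 4 the lowest (-0.46 ± 0.14, adjusted p = 0.0112). Scn3b (-0.30 ± 0.09), Scn8a (-0.29 ± 0.09), the calcium channel subunits Cacnb4 (-0.40 ± 0.08), Cacna2d3 (-0.42 ± 0.10) and Cacna1d (-0.36 ± 0.09) and the potassium channels Kcna6 (-0.32 ± 0.09) and Kcnk1 (-0.41 ± 0.11) fell too, as did Hcn3, a channel opened by hyperpolarisation (-0.25 ± 0.07).

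In the fit without the far libraries 1 sodium, 3 calcium and 3 potassium channel genes were called, beside 3.35% lower among all genes. Scn2a had an adjusted p of 0.0638 in this edgeR fit. Left out alone, Ctrl replicate 3 gave 3 sodium and 8 potassium channel genes, replicate 4 gave 3, 6 and 5 (sodium, calcium, potassium) and replicate 8 gave 2, 7 and 5. Potassium channel counts also became 25 without Ctrl replicate 6, 6 without Ctrl replicate 7, 9 without replicate 3, 10 without replicate 6 and 28 without replicate 9. Scn8a was not called without replicate 8 (adjusted p = 0.0502).

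Clustered protocadherins, cell-surface proteins by which neurons recognise themselves, were lower in 30 of 56 cases and higher in 0 (median -0.29), beside 12.2% and 15.4% of all genes. Averaged over the list, every exposed library was below the Ctrl mean, from -1.37 to -0.03 on the log2 scale. Pcdhgc5 measured 6.18, 10.8 and 15.1 CPM in Ctrl and 2.32, 6.98 and 10.4 in exposed embryos. Genes of a cluster share constant exons, so the assignment of reads to single members is uncertain. Of the 56, 4 were called lower without the far libraries, beside 3.35% of all genes. When left out alone, Ctrl replicate 3 gave 19, Ctrl replicate 7 gave 17, replicate 4 gave 14 and replicate 8 gave 18. Axon guidance genes were lower in 12 of 36 cases and higher in 1, beside 12.2% and 15.4% of all genes. Among the lower ones were the Slit receptor Robo1 (-0.27 ± 0.08) and the Eph receptor Epha7 (-0.23 ± 0.07). Without the far libraries edgeR called 0 (4 with group weights), and with length and GC offsets 7 were lower and 4 higher. Left out alone, Ctrl replicate 12 and replicate 3 gave 7 lower each, replicate 4 gave 5 and replicate 8 gave 3.

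Markers of the cortical layers were lower in small numbers. Upper-layer genes were lower in 4 of 15 cases and deep-layer genes in 5 of 15, with 0 higher in each, against 12.2% lower among all genes. Ldb2, a cofactor of LIM-domain factors in deep layers, measured 64.1, 73.1 and 92.3 CPM in Ctrl and 45.7, 59.5 and 75.8 in exposed embryos (-0.35 ± 0.08), and 9 of 12 exposed libraries lay below every Ctrl library. Syt6 (-0.35 ± 0.08) and Nr4a2 (-0.34 ± 0.10) also fell, as did the upper-layer genes Inhba, an activin subunit (-0.47 ± 0.14), Lmo4, a LIM-domain cofactor (-0.21 ± 0.07), and Dok5 (-0.29 ± 0.10), while the layer regulators Tbr1 (0.07 ± 0.08), Bcl11b (-0.17 ± 0.08), Fezf2 (0.12 ± 0.11) and Cux2 (-0.15 ± 0.07) were not called. Without replicate 3, or without replicate 4, 1 upper-layer gene was called, and without replicate 8, 3 deep-layer genes. The lower ones numbered 0 and 1 without the far libraries, and with group weights 3 and 4.

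Genes of the earliest glia were lower. Oligodendrocyte precursor genes were lower in 5 of 14 cases (median -0.38) and early astrocyte genes in 8 of 22 with 1 higher (-0.17). Among all genes 12.2% were lower and 15.4% higher. Without the far libraries the lower ones numbered 4 and 4, beside 3.35% of all genes. Sox10, which defines oligodendrocyte precursors, measured 6.27, 8.13 and 13.6 CPM in Ctrl and 1.27, 6.25 and 10.01 in exposed embryos. Replicate 4 was the lowest, replicate 9 the highest, and 11 of 12 were below the Ctrl mean (-0.63 ± 0.17, adjusted p = 0.00714). Pdgfra, the growth factor receptor of these cells (-0.38 ± 0.14), the proteoglycan Cspg4 (-0.44 ± 0.14), the receptor Gpr17 of committed precursors (-0.54 ± 0.18), and the astrocyte genes Sparcl1 (-0.34 ± 0.11), Aqp4 (-0.79 ± 0.26) and Gfap (-0.87 ± 0.30) fell, and Olig1 (-0.38 ± 0.16) and Olig2 (-0.22 ± 0.10) were not called. Of single libraries, the count of 5 became 2 without Ctrl replicate 3, replicate 4 or replicate 8, 3 without Ctrl replicate 12, 8 without Ctrl replicate 5 or replicate 2, 10 without Ctrl replicate 6 and 11 without replicate 9, and the count of 8 became 5 without Ctrl replicate 3 or replicate 8, 4 without Ctrl replicate 7 and 3 without replicate 4.

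Cholesterol synthesis, on which growing axons and membranes depend, was lower along much of the pathway. Of 22 genes 11 were lower and 0 higher (median -0.12, the same sign in both batches), and 6 were called, all lower, without the far libraries. Among all genes 12.2% were lower with all libraries and 3.35% without the far ones. Hmgcs1, which makes HMG-CoA, measured 465, 629 and 750.2 CPM in Ctrl and 378, 524 and 619 in exposed embryos (-0.27 ± 0.07, adjusted p = 0.00583). No exposed library reached the Ctrl mean of Hmgcs1, and 3 were below every Ctrl library. Dhcr7 measured 63.4, 70.1 and 76.5 CPM in Ctrl and 49.6, 57.5 and 70.2 in exposed embryos, 9 of them below every Ctrl library. Lss (-0.21 ± 0.07), Sqle (-0.14 ± 0.05) and Fdft1 (-0.12 ± 0.04), enzymes of the steps through squalene, fell. Summed over the 22 genes, all 12 exposed libraries were below the Ctrl median and 5 below the lowest Ctrl library. Averaged over the list on the log2 scale, exposed replicates 1 (0.006) and 2 (0.04) were slightly above the Ctrl mean. The count of 11 became 7 without Ctrl replicate 3, Ctrl replicate 12, replicate 3 or replicate 6 and 5 without replicate 4.

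CCAAT, the box bound by NF-Y, was found in the promoter windows of 15 of 16 of these genes (93.8%) and in 38.6% of all tested genes. Its place is shown in the 250 bases before the start of Hmgcs1 (chr13:119690101-119690350, plus strand), the member of lowest p that holds it there, and capitals mark the box on either strand.
Hmgcs1: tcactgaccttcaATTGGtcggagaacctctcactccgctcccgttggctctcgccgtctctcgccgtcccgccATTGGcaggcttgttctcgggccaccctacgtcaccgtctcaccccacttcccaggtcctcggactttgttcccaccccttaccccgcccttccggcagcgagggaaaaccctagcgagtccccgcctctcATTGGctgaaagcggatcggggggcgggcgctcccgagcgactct
The match describes the letters of the window and no binding was measured.

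Immediate early genes, which respond within minutes to synaptic activity, were lower in 6 of 20 cases and higher in 2, beside 12.2% and 15.4% of all genes. Egr4 measured 0.890, 1.69 and 3.25 CPM in Ctrl and 0.0529, 0.762 and 1.71 in exposed embryos. None of the 12 exposed libraries reached the Ctrl mean, and 8 were below every Ctrl library (-1.07 ± 0.28, adjusted p = 0.00528). Egr3 (-0.46 ± 0.12; 8.06, 10.4 and 15.5 CPM in Ctrl, 5.71, 7.89 and 10.1 in exposed embryos), Nr4a1 (-0.47 ± 0.12), Npas4 (-0.80 ± 0.24), Fosl2 (-0.46 ± 0.12) and Homer1 (-0.17 ± 0.06) fell, Ier2 (0.41 ± 0.10) and Jund (0.27 ± 0.07) rose, and Fos (-0.49 ± 0.22) and Arc (-0.17 ± 0.13) were not called.

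Without the far libraries 4 of these genes were lower, Egr3, Nr4a1, Egr4 and Npas4, and 0 higher, beside 3.35% and 3.93% of all genes. Without replicate 2 alone 10 were lower. The letters TGACG, the core of the cyclic AMP response element, were found in the windows of 12 of 16 genes of the list (75.0%) and in 30.9% of all tested genes. They stand on the strand opposite to the one printed at every match before the start of Nr4a1 (chr15:101266596-101266845, plus strand), the lower member of lowest p that holds them, and capitals mark them there.
Nr4a1: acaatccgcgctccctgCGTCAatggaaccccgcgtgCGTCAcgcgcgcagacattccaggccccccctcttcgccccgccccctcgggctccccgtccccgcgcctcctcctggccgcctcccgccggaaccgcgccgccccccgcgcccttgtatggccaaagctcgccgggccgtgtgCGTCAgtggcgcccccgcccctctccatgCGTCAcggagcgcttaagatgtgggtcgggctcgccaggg
In the stress axis list 5 of 17 genes were lower and 2 higher, beside 12.2% and 15.4% of all genes, or 2 and 0 without the far libraries. The 2 higher became 0 without replicate 4 and 1 without Ctrl replicate 4, 7 or 12 or replicate 6, 8 or 9. The clock gene Per1 (-0.32 ± 0.08) and the mineralocorticoid receptor Nr3c2 (-0.63 ± 0.18) fell with the nuclear receptor coactivator Ncoa1 (-0.33 ± 0.08), while the glucocorticoid receptor Nr3c1 (-0.17 ± 0.08) and its target Fkbp5 were not called (adjusted p = 0.101 and 0.959).

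Among 28 chromatin and transcription regulators linked to autism 2 were lower and 0 higher, beside 12.2% lower among all genes. Among them was Foxp1, a transcription factor of cortical neurons, with 159, 193 and 228 CPM in Ctrl and 87.97, 148 and 193 in exposed embryos (-0.43 ± 0.09, adjusted p = 0.0025). No exposed library reached the Ctrl mean of Foxp1 and 8 were below every Ctrl library, replicate 8 being the lowest. Of 28 imprinted genes, which carry parent-of-origin marks, 3 were higher and 1 lower, below the 15.4% and 12.2% of all genes. Mest (0.33 ± 0.08), Cdkn1c (0.29 ± 0.08) and Grb10 (0.43 ± 0.13) rose, and Grb10 was not called without replicate 4 (adjusted p = 0.0551). Leaving out Ctrl replicate 3 made 5 imprinted genes higher, and the number lower became 7 without replicate 9, 4 without Ctrl replicate 11 and 0 or 2 without 13 other single libraries. Of 16 genes of DNA methylation, at shares near those of all genes (15.4% higher, 12.2% lower), 2 were higher, Mbd3 (0.25 ± 0.06) and Uhrf1 (0.38 ± 0.13), and 2 lower, while the maintenance methyltransferase Dnmt1 was at -0.06 ± 0.08 (adjusted p = 0.598). Uhrf1 was not called without replicate 4 (adjusted p = 0.106). In this list 1 gene was higher and 0 lower without the far libraries.

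Glycolysis and hypoxia genes were lower in 8 of 26 cases and higher in 1 (4 and 0 without the far libraries), beside 12.2% and 15.4% of all genes. The median of the list was -0.06, with opposite signs in batch 1 (0.04) and batch 2 (-0.14). The lower genes were led by the neuronal glucose transporter Slc2a3 (-0.40 ± 0.08, with 42.4, 56.01 and 76.8 CPM in Ctrl and 28.3, 44.5 and 62.5 in exposed embryos). Vegfa (-0.52 ± 0.12) and hexokinase Hk1 (-0.29 ± 0.07) fell with it. Vegfa was at -0.07 in batch 1 and -0.87 in batch 2, a difference that was not called (adjusted p = 0.31). Antioxidant genes were higher in 11 of 24 cases and lower in 0, including the peroxiredoxins Prdx4 (0.38 ± 0.09) and Prdx1 (0.28 ± 0.07), but 0 without the far libraries by edgeR (5 with group weights) and 5 without replicate 8. Xenobiotic metabolism genes were higher in 5 of 26 cases and lower in 2, near the 15.4% and 12.2% of all genes, and without the far libraries in 0 and 1. The 5 became 0 without replicate 8, 2 without replicate 3 or 4 and 3 without Ctrl replicate 7 or 12, and the 2 became 0 without Ctrl replicate 3 or 8 or replicate 3, 4, 5 or 6, 1 without Ctrl replicate 7 or replicate 8 or 10, and 4 without replicate 9. Of 27 genes of neuronal tubulins and microtubule proteins 11 were lower and 2 higher, or 2 and 0 without the far libraries (1 higher without replicate 4 or 8), with Crmp1 (-0.18 ± 0.04) and Tubb4a (-0.17 ± 0.05) below the Ctrl mean in every exposed library, and the peripheral neurofilament gene Prph (1.09 ± 0.22) above it in 11 of 12.

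Markers of the diencephalon differed through few libraries, and a few exposed libraries were far above the rest in globins. Diencephalon genes were higher in 9 of 14 cases with a median of 1.04, beside 15.4% of all genes, and 0 were called without replicate 9. Tfap2b measured 0, 0.626 and 3.52 CPM in Ctrl and 0, 0.728 and 86.2 in exposed embryos, where replicates 9 (86.2 CPM) and 4 (9.09 CPM) exceeded every Ctrl library and the other 10 did not. Hbb-y, an embryonic globin, measured 0, 0.104 and 0.967 CPM in Ctrl and 0.0518, 0.476 and 69.7 in exposed embryos, with replicates 4 (69.7 CPM) and 3 (18.8 CPM) far above the other 10. Summed over each list, embryonic and adult globins were above the Ctrl median in all 12 exposed libraries, and above the highest Ctrl library in 3 and 4. For embryonic globins the lowest exposed sum (0.207 CPM) was close to the Ctrl median (0.185 CPM). Averaged over the adult globin genes on the log2 scale, exposed replicates 5 (-0.05), 10 (-0.01) and 11 (-0.01) were just below the Ctrl mean. Adult globins were higher for all 4 genes and in summed level ran from 1352 to 1954 CPM in Ctrl and from 1526 to 3730.2 in exposed embryos, highest in replicate 8; 2 were called without it and 0 without the far libraries, and the paired copies of alpha and beta globin share reads. The Ctrl libraries highest in Hbb-y, replicates 6 (0.967 CPM) and 5 (0.617 CPM), were also the Ctrl libraries highest in mitosis genes.

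Other cell types had few calls beside the 15.4% higher and 12.2% lower of all genes. Microglia genes were higher in 2 of 21 cases, endothelial genes higher in 1 and lower in 3 of 22, choroid plexus and meningeal genes higher in 1 of 16 and 1 of 18, interneuron and ventral forebrain genes higher in 1 and lower in 3 of 22, and of 12 pericyte genes 0 were called by edgeR (1 at an unadjusted p under 0.05) or with group weights. Counts this small moved with many single libraries, between 0 and 4 higher for microglia genes. Cajal-Retzius genes were higher in 1 of 9 cases, cortical hem genes higher in 2 and lower in 1 of 15, heat shock genes higher in 1 and lower in 1 of 19, and other erythroid genes higher in 2 and lower in 1 of 9. Flt1, a receptor for VEGF on endothelium (-0.45 ± 0.12), the vasoconstrictor peptide gene Edn1 (-1.03 ± 0.26), and Gad1, the GABA-making enzyme of interneurons (-0.46 ± 0.14), fell. Summed choroid plexus and meningeal levels overlapped widely between the groups (52.8 to 994 CPM in Ctrl and 79.3 to 1361 in exposed embryos for choroid plexus).

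Mitosis, receptor and ribosome lists can be followed library by library. Averaged over the mitosis list, exposed libraries ran from -0.20 to 1.22 around the Ctrl mean (log2 scale, median 0.42), with replicates 3 and 4 the highest and replicates 1 (0.06), 2 (-0.19) and 9 (-0.20) near the Ctrl mean or below it. Ctrl libraries ran from -0.36 to 0.67, with replicates 5 and 6 the highest, so the groups overlapped. In the AMPA, NMDA and kainate receptor list the same Ctrl replicates 5 (-0.35) and 6 (-0.52) were the lowest of their group, and exposed replicates 4 (-1.18), 8 (-0.94) and 3 (-0.84) of theirs. In the cytosolic ribosome list exposed libraries had a median of 0.13 and replicate 8, at 0.65 for the mitosis list, stood alone at 1.07, against a highest Ctrl value of 0.16.

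**Figure D4:**
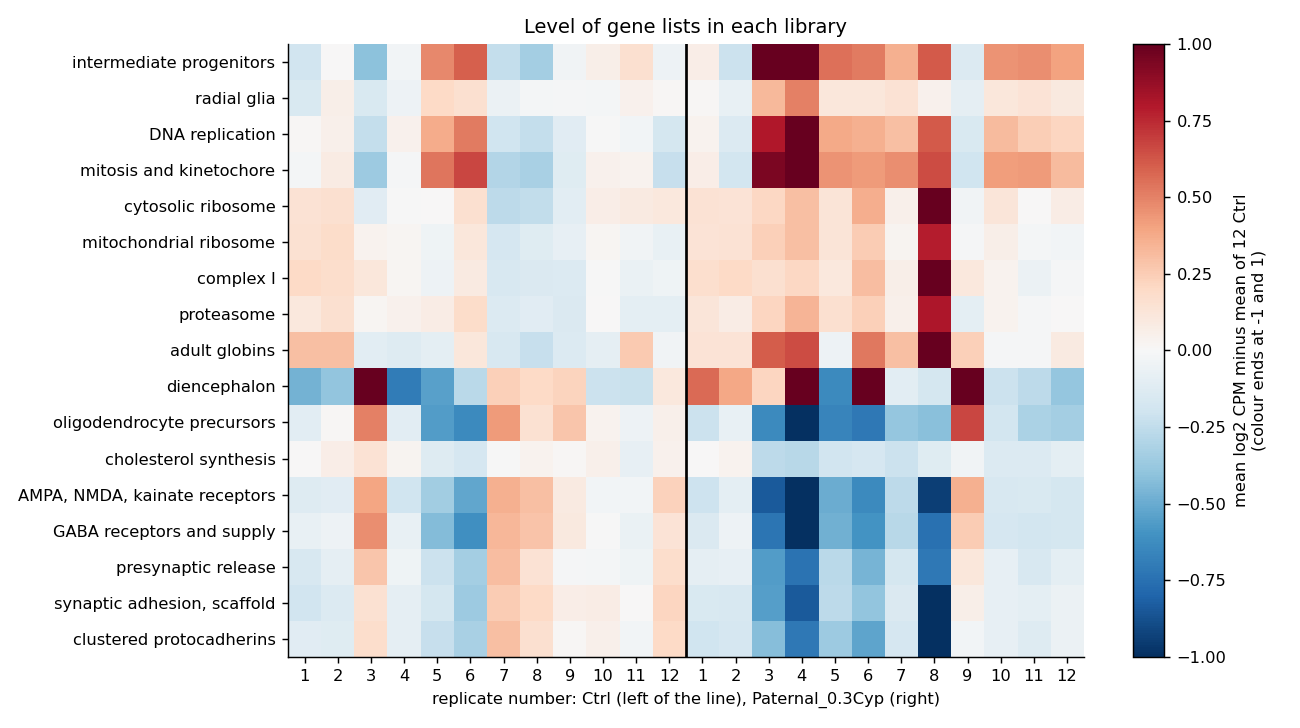
Mean log2 CPM of the members of 17 gene lists (rows) in each library (columns, by replicate number, Ctrl left and Paternal_0.3Cyp right of the line), as the difference from the mean of the 12 Ctrl libraries (colour, ending at -1 and 1). Exposed replicates 3 and 4 are high in progenitor and mitosis genes, replicate 8 in ribosome and complex I genes and replicate 9 in diencephalon genes, and Ctrl replicates 5 and 6 are also high in mitosis genes.

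The proportion of embryonic to adult globin RNA, which falls as embryos mature, moved with the comparison, its median being -12.77 in Ctrl and -11.01 in Paternal_0.3Cyp on the log2 scale. Its embryonic part rests on few reads in most libraries. Summed embryonic globins had medians of 0.185 CPM in Ctrl and 0.736 CPM in Paternal_0.3Cyp, where 1 CPM is about 17.9 counts. They ran from 0 CPM in the lowest Ctrl library to 82.6 CPM in exposed replicate 4. With this ratio, formed from Hbb-y and Hba-x against the 4 adult globin genes, as a covariate, 44 genes were called, 29 higher and 15 lower, and the median of the mitosis list was 0.16, that of the intermediate progenitor list 0.16 and that of the AMPA, NMDA and kainate receptors -0.17. In these 3 lists 0 members were called with the covariate by edgeR, and the cytosolic ribosome list had a median of 0.20 with 1 member called. Of the 12 rising genes named above 10 were still called, as were 10 of the 12 falling ones. Leaving out the 4 libraries of the series that were highest in embryonic globins left 2112 calls. The part of embryo age in the comparison was not tested.

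The 4 lists given below for each batch had medians of the same sign in both, while the numbers of calls were unequal. In a fit with a separate effect for each batch, batch 1 alone gave 1 called gene (0.00697% of genes; 2822 at an unadjusted p under 0.05) and batch 2 gave 2383 (16.6%). The difference between the batches was called for 0 genes by edgeR (1020 at an unadjusted p under 0.05), by limma voom (637) and without the far libraries (531). The 5 genes of lowest p for this difference were Smad7 (-0.61 ± 0.13), Adm (-1.62 ± 0.36), Aldh1a1 (5.08 ± 1.12), Adamts1 (-0.88 ± 0.21) and Pax5 (4.74 ± 1.104), given as batch 2 minus batch 1, with adjusted p from 0.117 to 0.168. Mitosis genes were at 0.38 and 0.48, AMPA, NMDA and kainate receptors at -0.41 and -0.27, and cholesterol synthesis genes at -0.14 and -0.11 in batches 1 and 2. Complex I genes were at 0.09 and 0.35, with replicate 8 in batch 2.

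Calls were unequal between the sexes as well. Female embryos gave 0 called genes in edgeR (3838 at an unadjusted p under 0.05) and males 2283 (15.9%), while a difference between the sexes was called for 1 gene, Aldh1a1, by edgeR (2389 at an unadjusted p under 0.05) and for 0 by limma voom (676) and without the far libraries (426). Calb2 (1.29 ± 0.27, male minus female), Gjc3 (3.27 ± 0.72), Fam19a4 (2.61 ± 0.60) and Tsnax (0.33 ± 0.08) came next by p and were not called. Medians of the mitosis list were 0.59 in females and 0.26 in males, and of the complex I list 0.07 and 0.37, differences that were not tested. Exposed replicates 3 and 4 were female and replicates 8 and 9 male.

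Against embryos whose fathers had the higher dose (Paternal_10Cyp, n = 10), those of the lower dose differed in few genes. Of 14339 genes 9 (0.0628%) differed, all higher at dose 10, the 5 of lowest p being Dcun1d1 (0.19 ± 0.04), Tmed7 (0.14 ± 0.03), Vps35 (0.13 ± 0.03), Ssr3 (0.13 ± 0.03) and Exoc5 (0.16 ± 0.03), genes of protein traffic apart from the neddylation factor Dcun1d1. No member of the 50 lists was among them, and list medians of dose 10 minus dose 0.3 were -0.09 for mitosis, -0.03 for AMPA, NMDA and kainate receptors and -0.03 for the cytosolic ribosome. Hes1 differed by -0.39 ± 0.13 and Dhcr7 by 0.07 ± 0.05 between the doses. A difference that misses the threshold does not show that the doses act alike, and the count ran from 0 (edgeR fitted on these 2 groups, 583 at an unadjusted p under 0.05) to 186 (limma voom).

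Against embryos whose mothers had the same dose (Maternal_0.3Cyp, n = 12), 1 gene (0.00697%) differed, Irx2, a patterning gene of the diencephalon and other regions, which was lower with maternal exposure (-3.57 ± 0.71). Its level in Paternal_0.3Cyp rested on replicate 9, at 24.4 CPM against at most 4.39 CPM in the other 11, and 0 genes were called without the libraries high in diencephalon markers (618 at an unadjusted p under 0.05). Barhl1 (-4.25 ± 0.95), Irx1 (-2.11 ± 0.45), Irx5 (-3.01 ± 0.68) and Shox2 (-3.71 ± 0.86), also patterning genes, came next by p and were not called. Hes1 differed by -0.23 ± 0.13 and Fchsd2 by 0.06 ± 0.04, maternal minus paternal. On these 2 groups alone edgeR called 0 genes (265 at an unadjusted p under 0.05).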

How the data were processed

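RNA of 76 mouse dorsal forebrain libraries was sequenced, and the report uses 24 of them, 12 for each group, with 17.9 to 19.9 M counts each. The authors deposited each estimated count per gene (14823 genes), for which Trim Galore 0.5.0, Salmon 1.10.1 and the build mm10 are listed per the submitters' processing notes. All values are whole numbers, and how estimates were summed to genes and rounded is not given in the sources used here. Each gene had at least 10 counts in 3 or more libraries. GENCODE M21 gave symbols for 14810 genes.

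Counts were normalised by TMM and genes filtered with filterByExpr (484 left out). The test was edgeR 4.0.16's robust quasi-likelihood test with terms for group, batch and sex over all 76 libraries, so that groups share 1 estimate of spread, with Benjamini-Hochberg adjustment over 14339 genes and a threshold of 0.05. Normalised CPM are counts per 1 M of the TMM-scaled total, and 1 CPM was about 17.9 counts in the smallest library. Alternatives used limma 3.58.1 (voom), DESeq2 1.42.0 and sva 3.50.0 in R 4.3.3. A library was called far when its median absolute log2 deviation from its group and batch lay over 3 median absolute deviations above the median library. The fits without the far libraries, and those of the 24 libraries alone with them left out or with limma weights, were chosen after seeing the data. The globin ratio used a pseudocount of 0.5. The script was tested on simulated data in which all groups had the same spread, so that test does not cover the uneven spread seen here. No library's Y-linked counts went against its labelled sex, and no 2 libraries of a group agreed within sampling noise.

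Named genes are the 12 rising and 12 falling genes of lowest p with a mean of at least 5 CPM, the same sign in both batches and an unadjusted p under 0.05 in the 24 libraries alone, up to 3 members of lowest p in each of 50 lists, every member of a list of at most 7, the 5 of lowest p in the other comparisons, and the 3 in each direction that separated the groups best by rank within batches. Aqp4, Arc, Bcl11b, Ccnb1, Cux2, Dnmt1, Eomes, Fabp7, Fdft1, Fezf2, Fkbp5, Fos, Fosl2, Gfap, Gmnn, Gria2, Grin2b, Hes5, Homer1, Jund, Lss, Mki67, Neurog2, Npas4, Nr3c1, Olig1, Olig2, Pax6, Pcna, Pdgfra, Rfc3, Sox2, Sqle, Tbr1, Tk1 and Top2a were named in addition, after their values were seen. The comparison, the gene lists and the members were chosen with earlier results of these data known. Some genes of the lists are counted but not reported here by name.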

Additional observations from a re-analysis of the deposited data

Results flagged for a closer look

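The sex difference in the response of Aldh1a1, an enzyme of retinoic acid synthesis, was the only one of 14339 genes that passed the test (male minus female 5.89 ± 1.08 on the log2 scale, adjusted p = 0.0107, edgeR). Its log2 fold change was -3.14 in females and 2.75 in males. The values came from 2 libraries, the female Ctrl replicate 3 at 6.43 CPM and the male Paternal_0.3Cyp replicate 9 at 12.6 CPM, while Aldh1a1 was at or below 0.673 CPM in the other 22. Both libraries were also the highest of the 24 in diencephalon markers (288 and 725 CPM), and without the 5 far libraries Aldh1a1 no longer passed the filter on low counts.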

How the results depend on the processing

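The count of 3961 genes was within 1.5 times under DESeq2 size factors, no filter, DESeq2, limma voom with sample weights (2825), no batch term, no sex term, length and GC offsets and without libraries high in diencephalon markers. It was 2044 with limma group weights, 0 on the 24 libraries alone, 2134 with 2 surrogate variables, 4 in batch 1 alone, 1313 in batch 2 alone, 44 with the globin ratio, 2112 without the 4 libraries of high embryonic globin and 1040 without the 5 far ones. On the 24 libraries alone it was 210 without the far ones, 371 with limma group weights and 1760 with limma sample weights. Leaving out 1 library gave 2262 (without Paternal_0.3Cyp replicate 8) to 4960 (without replicate 9), and 2592 without replicate 4. The cause of these shifts was not tested beyond the libraries named.

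The count between the doses (9) was 18 under DESeq2 size factors, 17 without a filter, 58 with DESeq2, 186 with limma voom, 0 on those groups alone, 2 without a batch term, 20 with surrogate variables, 3 without libraries high in globin, 1 without those high in diencephalon markers and 69 without the far ones. Between exposed parents (1) it was 5 without a filter and with DESeq2, 3 without a sex term, 2 without libraries high in globin, and 0 with limma voom, on those groups alone, without libraries high in diencephalon markers and without the far ones. The sex difference (1) was 3 without a filter, and 0 with limma voom, on the groups alone and without the far libraries. The batch difference stayed at 0.

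Groups share replicate numbers, but same-numbered libraries did not deviate together (correlations from -0.22 to 0.34, best with the own number in 2 of 12), so the numbers do not pair them. With the replicate number as a block 4428 genes were called, 9 between the doses and 0 between exposed parents. Of 136 called genes named in the report, all kept their sign under the alternatives in which they were tested, except 3 of diencephalon. Tfap2b turned to -0.084 without the far libraries, and on the 24 libraries alone to -0.26 without them and -0.13 with limma sample weights. Pax5 turned to -0.000993 with limma voom, -0.88 in batch 1 alone, -0.22 without libraries high in diencephalon markers, -0.42 without replicate 9 (up to 2.24 with another library left out) and -0.10 without the far libraries. Irx5 turned to -0.15 with limma voom.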
